A study of Homo sapiens with 12 samples.

Results

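The serous ovarian carcinoma lineage markers are a panel of 10 genes used to recognise this tumour type: MUC16, WFDC2, MSLN, FOLR1, KRT7, CLDN3, PAX8, SOX17, WT1 and MECOM. The members were chosen by name, and each was found as 1 row among the 19677 genes of the count tables. RNA was sequenced from cells labelled CAOV3, an established human line that the labels describe as high grade serous, of wild-type genotype. All cells grew in medium with 10% fetal bovine serum. The 12 libraries formed 4 groups of 3: a DMSO control, 10% ascites from ovarian cancer plus DMSO, bezafibrate at 200 uM, and a combination of ascites and bezafibrate. Bezafibrate is a fibrate, a lipid-lowering drug that activates PPAR nuclear receptors, and ascites is the fluid that gathers in the abdomen in this disease. The 3 treated groups were labelled as exposed for 16 hours, with no time in the control labels. The labels name DMSO only in the groups without the drug, so an absence of DMSO and the drug cannot be told apart. One cell line was used, and nothing in the labels says that replicates were separate cultures or how many patients gave the ascites, so the p-values measure only the spread between these libraries.

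High-grade serous carcinoma is held to arise mostly from epithelium of the Müllerian duct lineage, such as that of the fallopian tube. Pathologists recognise it by the lineage transcription factors PAX8, SOX17 and WT1, by simple-epithelium keratin KRT7, and by the shed or surface antigens MUC16 (CA125), WFDC2 (HE4), MSLN (mesothelin) and FOLR1 (folate receptor alpha), several of which are blood tests or drug targets. MECOM lies in a region of chromosome 3 that is often amplified in this tumour, and CLDN3 is a tight-junction protein that many ovarian carcinomas carry in excess.

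The measured levels went against the label for most of the panel. Levels are given as CPM, a library's counts scaled to a common size by edgeR's TMM method. Over the 12 libraries 7 of the 10 members averaged under 1 CPM, and KRT7, MECOM and CLDN3 averaged more than that in all 4 groups. PAX8 did so in the bezafibrate group alone, at 1.11 CPM ± 0.138 (SD, n = 3). SOX17 had no count in any library. Of the listed markers of other epithelial lineages, VIL1 and CDX2, known from gut epithelium, averaged 166 and 12.1 CPM. KRT20 and MUC2, also known from gut, averaged under 1 CPM, and GATA3 of the same list averaged 18.1. Whether the cells match the labelled line was not tested, and every level below is that of cells so labelled. The panel is therefore called by its rule here, as named marker genes, and the low members are given as counts.

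Promoter sequence was set beside these levels, because 2 members whose windows held the same number of CpG lay at different levels. In the promoter windows of RefSeq on GRCh38.p14, 6 of the 10 members had an entry, with 12 windows of 250 bases before an annotated start. KRT7, MSLN, FOLR1 and SOX17 had none. Capitals mark each CpG, the dinucleotide at which cytosine is methylated in human DNA. The windows of WFDC2 (chr20:45469503-45469752, plus strand) and CLDN3 (chr7:73770271-73770520, minus strand) are shown because they held the same number of CpG, and 1 of the 3 MECOM windows (chr3:169146540-169146789, minus strand) is shown beside them. All are written 5′ to 3′ on the strand of the gene.
WFDC2: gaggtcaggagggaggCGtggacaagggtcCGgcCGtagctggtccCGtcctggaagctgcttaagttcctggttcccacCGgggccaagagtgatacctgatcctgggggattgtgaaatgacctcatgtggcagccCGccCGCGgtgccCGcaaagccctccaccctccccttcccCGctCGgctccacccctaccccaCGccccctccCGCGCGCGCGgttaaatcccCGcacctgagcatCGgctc
CLDN3: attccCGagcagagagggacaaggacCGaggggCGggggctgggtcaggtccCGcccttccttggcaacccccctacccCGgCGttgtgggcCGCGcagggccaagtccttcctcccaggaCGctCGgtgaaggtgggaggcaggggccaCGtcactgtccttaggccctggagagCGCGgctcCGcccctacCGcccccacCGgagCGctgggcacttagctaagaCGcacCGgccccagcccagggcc
MECOM: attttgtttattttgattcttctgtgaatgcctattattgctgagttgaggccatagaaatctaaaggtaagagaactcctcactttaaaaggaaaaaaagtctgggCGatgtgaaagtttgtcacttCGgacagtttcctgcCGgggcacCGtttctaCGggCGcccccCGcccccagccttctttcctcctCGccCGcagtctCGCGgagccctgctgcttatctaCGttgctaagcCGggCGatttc
The WFDC2 and CLDN3 windows each held 19 CpG, more than in 65.4% of the 35116 windows of the reference, whose median was 11. The MECOM window shown held 14. The first WT1 window also held 19, the PAX8 window 11 and both MUC16 windows 6. Per kilobase of exon in control, WFDC2 was at 0 and CLDN3 at 1.94 CPM per kb ± 0.442 (SD, n = 3). The direct repeat DR1, searched as 2 copies of AGGTCA with 1 base of any kind between them, is the kind that PPAR-RXR pairs bind. It was searched on both strands and had no match in the 12 windows, and 0.0171% of all windows held it. Its single element AGGTCA, which any such repeat also contains, was in 12.1% of all windows and in 4 of the 12 member windows: 2 matches in that of WFDC2, and 1 each in a MECOM, a WT1 and a MUC16 window. TATAAA had no match in the 12 windows against 10.7% of all. These are letter matches in short windows and say nothing about binding.

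Among the surface and secreted antigens, MUC16, the large mucin that carries the CA125 epitope, had counts of 2, 0 and 2 in the control libraries and 2, 1 and 3 with ascites. It had 0 in all 6 libraries with bezafibrate. The 10 counts without the drug lay among 82174071 and gave 0.122 CPM before scaling (exact Poisson 95% interval 0.0584 to 0.224). For the 0 counts among 90963355 that kind of interval reaches 0.0406 CPM, and the floor used here is lower, 0.0330 CPM over the group. The point estimate without the drug was 3.69 times this floor, which takes 3 counts over the group. That ratio leaves out the counting error of the 10 counts, so it is not a lower bound on the fall. Intervals and floors here cover counting error only. It did not pass the filter on low counts, and the fit without that filter gave an edgeR adjusted p of 0.0177 for the drug effect averaged over both ascites states. With or without ascites alone the adjusted p was 0.135 and 0.216 in edgeR. DESeq2 gave MUC16 no adjusted p for the averaged effect (unadjusted p = 0.0267) and did not call it. The result rests on 10 counts, and 1 library without the drug was also at 0.

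WFDC2, a secreted protease-inhibitor-like protein, had 1 count in ascites replicate 2 and 1 in combination replicate 1, and 0 in the other 10 libraries. MSLN, a surface glycoprotein of mesothelium that binds MUC16, had counts of 5, 11 and 9 in control, 3, 4 and 5 with ascites, 3, 7 and 6 with bezafibrate and 3, 5 and 5 with both. The control libraries were the highest on average at 0.613 CPM before scaling against 0.290 to 0.319 in the other groups, but the exact Poisson intervals of the groups overlapped. FOLR1, a folate receptor anchored at the cell surface, had 3, 2 and 5 counts in control, 2, 0 and 3 with ascites, 1, 2 and 1 with bezafibrate and 3, 6 and 3 with both. Its libraries overlapped between groups on both sides of the drug, with 15 counts in all without it and 16 with it. The drug groups lay in opposite order by ascites state, at 10 counts in control against 4 with bezafibrate, and 5 with ascites against 12 with both. In the fit without the filter the interaction of FOLR1 had an unadjusted p of 0.0349 and was not called by edgeR (adjusted p = 1.00). Without the filter, neither MSLN nor FOLR1 was called for the drug averaged over ascites states (edgeR adjusted p = 0.678 and 0.992).

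KRT7, a type II keratin of simple epithelia that pathologists use with KRT20 to assign carcinomas to their site, had the highest level of the panel, per kilobase as well as in CPM, and the smallest adjusted p for the drug. Control libraries held 767, 765 and 755 CPM and ascites libraries 801, 807 and 803. Bezafibrate libraries held 1070, 1134 and 1149, and libraries with both held 1248, 1185 and 1132. Every library with the drug lay above every library without it. The share of all genes so separated is not given here, so this is a description only. The gene lies at chr12:52233243-52255853 on the plus strand of GRCh38. Of its 4093 exonic bases, 282 overlap KRT7-AS and 32 overlap KRT87P on the other strand, and the strandedness of the counting is not given in the sources used here.

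**Figure D1:**
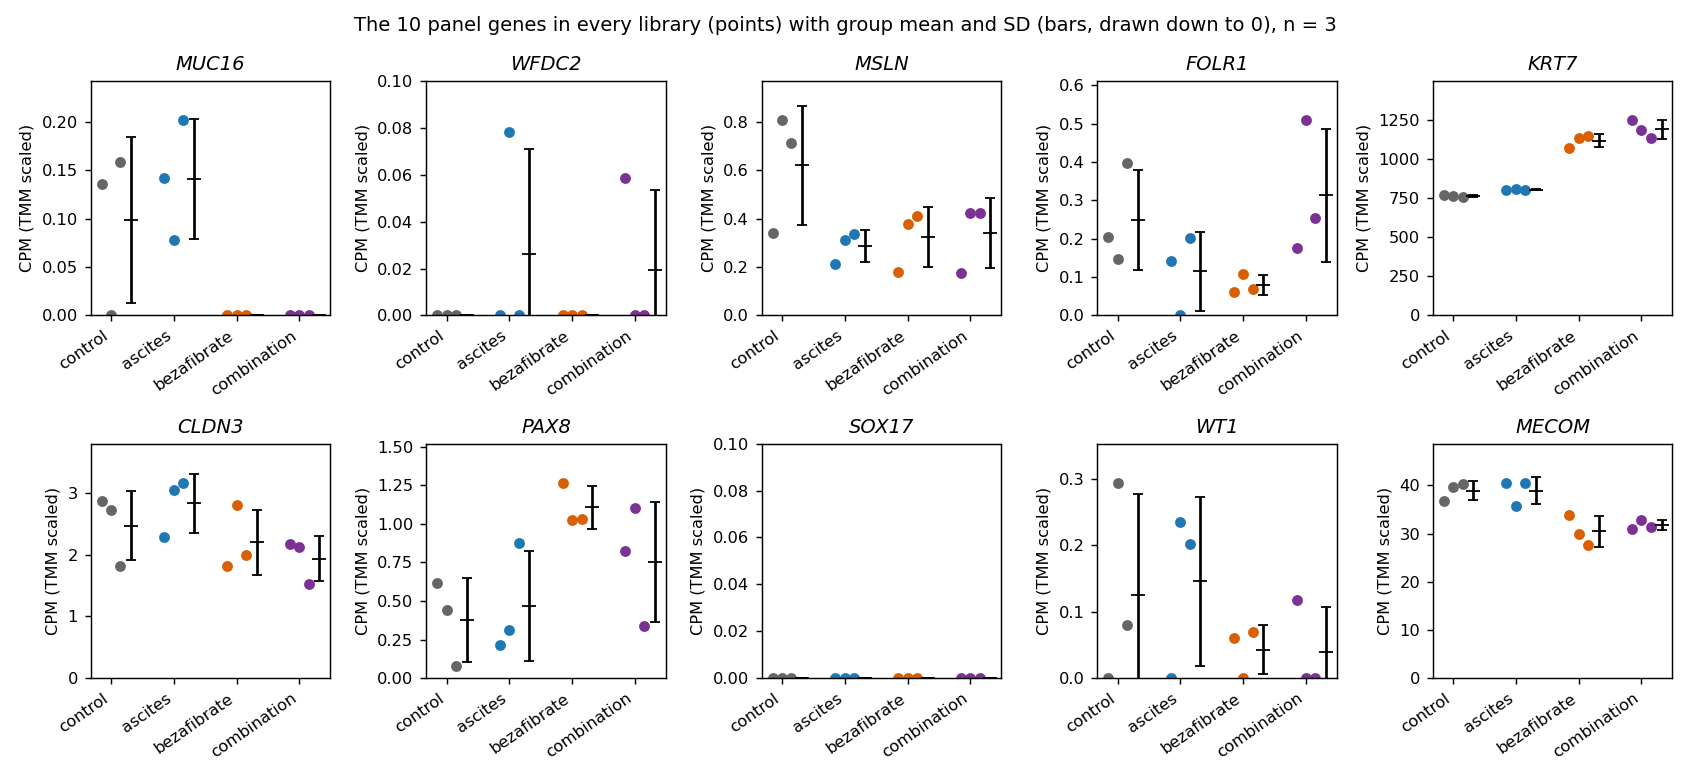
CPM of each of the 10 members (one panel each, linear axis from 0) in the 4 groups, with 1 point per library and the group mean and SD as bars. In KRT7 the 6 libraries with the drug lie above the 6 without, in MECOM they lie below, and SOX17 is at 0 throughout.

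Against control, bezafibrate raised KRT7 by 0.55 on the log2 scale (SE 0.030, edgeR adjusted p = 3.34e-17), or 1.47-fold. With ascites present in both groups the drug raised it by 0.57 (SE 0.030, edgeR adjusted p = 1.75e-17). Of the 4 members that could be tested, 3 were called for the drug without ascites, against 17.6% of the 12470 genes tested, and 2 with ascites, against 17.8%. Averaged over both ascites states, 3 were called, against 28.3% of all genes tested, of which 2 were higher (15% of all genes) and 1 lower (13.2%). The combination against control called 2 members against a background of 18.2%, with KRT7 0.64 higher (edgeR adjusted p = 5.04e-19). PAX8 is the third call for the drug without ascites and for the averaged drug effect. It entered the test mainly through its drug-treated libraries, where it was high, and DESeq2 did not call it in either comparison (adjusted p = 0.107 and 0.0675). The counts of members called are therefore a description of 4 genes, and nothing is read from their share.

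CLDN3, a claudin that seals the space between epithelial cells, was at 2.86, 2.72 and 1.82 CPM in control, 2.28, 3.04 and 3.16 with ascites, 1.81, 2.80 and 1.99 with bezafibrate and 2.17, 2.12 and 1.52 with both. The groups overlapped. The averaged drug effect was -0.35 on the log2 scale, with a 95% interval of -0.74 to 0.05 and an edgeR adjusted p of 0.135. Other claudins of the epithelial list, named after their values were seen, moved both ways: CLDN4 rose by 0.66 and CLDN7 fell by 0.46 (edgeR adjusted p = 4.94e-20 and 2.17e-08). CLDN10 also fell by 0.45, from 15.5 CPM ± 1.18 in control to 11.1 ± 0.463 with bezafibrate (SD, n = 3 each).

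**Figure D2:**
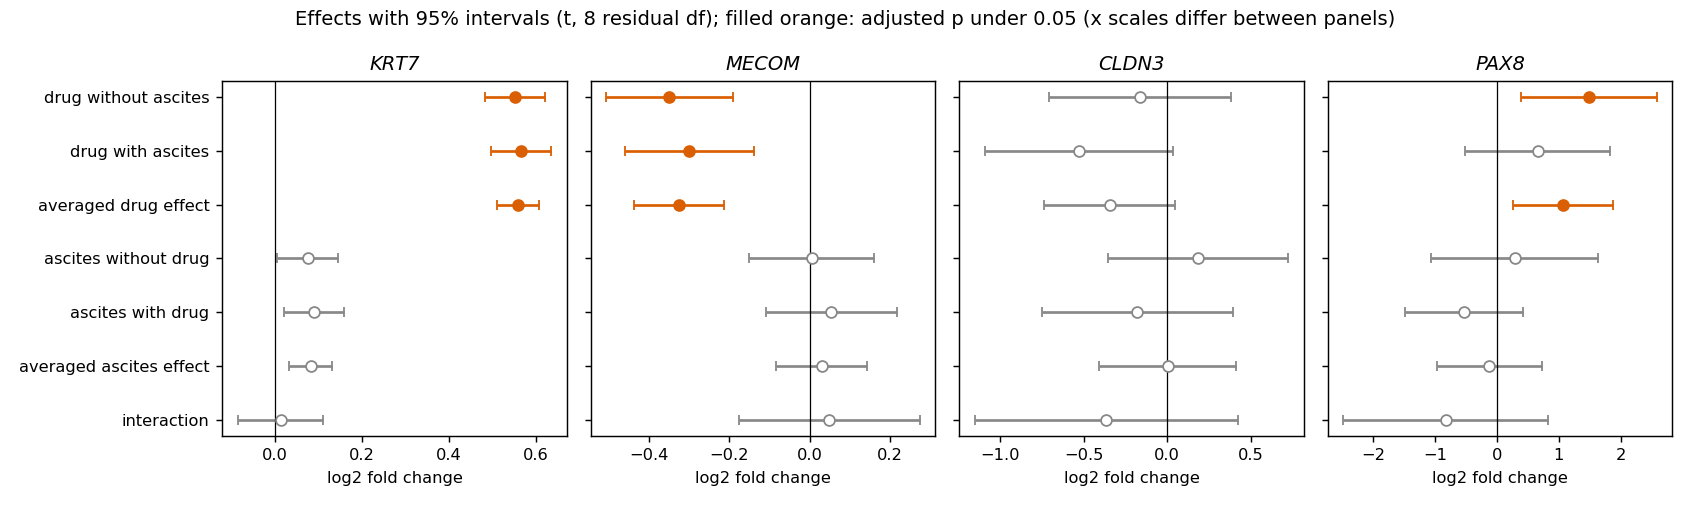
Log2 effects of the drug, of ascites and of their interaction for the 4 tested members (points), with 95% intervals (bars). The KRT7 and MECOM drug effects lie away from 0 on opposite sides, and the PAX8 intervals are the widest.

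The transcription factors split by level. SOX17, an SRY-box factor of Müllerian and endodermal lineages, was at 0 of 173137426 counts. That gives a floor of 0.0173 CPM at 3 counts, and the exact Poisson 95% interval reaches 0.0213 CPM. WT1, the zinc-finger factor whose nuclear stain marks serous carcinoma, had counts of 0, 4 and 1 in control, 0, 3 and 3 with ascites, 1, 0 and 1 with bezafibrate and 2, 0 and 0 with both. The 11 counts without the drug and 4 with it gave overlapping exact Poisson intervals, 0.0668 to 0.240 and 0.0120 to 0.113 CPM. Of the exonic bases of WT1, 113 overlap its antisense gene.

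MECOM, the zinc-finger factor also known as EVI1, was the highest of the 4 factors. Its libraries held 36.7, 39.7 and 40.4 CPM in control and 40.4, 35.8 and 40.5 with ascites. With bezafibrate they held 33.9, 29.8 and 27.6, and with both 31.0, 32.9 and 31.4. Every library with the drug was below every library without it, again a description with no share of all genes beside it. The gene, at chr3:169083507-169663712 on the minus strand of GRCh38, fell by 0.35 on the log2 scale with the drug alone (SE 0.068, edgeR adjusted p = 0.000155) and by 0.30 with ascites present (SE 0.070, edgeR adjusted p = 0.00145). The averaged effect was a level of 0.799 times that without the drug.

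PAX8, the paired-box factor used as the main nuclear marker of Müllerian origin, was near the limit of detection. Counts were 9, 6 and 1 in control, 3, 4 and 13 with ascites, 21, 19 and 15 with bezafibrate and 14, 13 and 4 with both. The bezafibrate libraries were the highest as a group, and the groups with and without the drug overlapped. It rose by 1.48 on the log2 scale with the drug alone (SE 0.477, edgeR adjusted p = 0.0252), and the value with ascites present was 0.66 (SE 0.506, edgeR adjusted p = 0.440). PAX8 passed the filter on low counts because of 6 libraries at or over 0.701 CPM, 5 of them with the drug. DESeq2 did not call it in either form (adjusted p = 0.107 for the drug alone and 0.0675 averaged), and without control replicate 3 the averaged value was 0.85 with an edgeR adjusted p of 0.0659. Without ascites replicate 1 or combination replicate 2 that adjusted p was 0.0619 and 0.0705. The call for the drug alone was also lost without control replicate 2 or 3 or without bezafibrate replicate 1 or 2. Of its exonic bases, 685 overlap PAX8-AS1, so some of its few counts may not be its own.

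Per kilobase of exon (GENCODE 29, all exons of a gene merged), the control level of KRT7 was 186 CPM per kb ± 1.60 (SD, n = 3), rank 149 of 19571 genes with a length. MECOM followed with 4.27 ± 0.216 and CLDN3 with 1.94 ± 0.442. MSLN was at 0.243, FOLR1 at 0.151 and PAX8 at 0.0511 CPM per kb. WT1 and MUC16 were at 0.030 and 0.00224, and WFDC2 and SOX17 at 0 in control. MSLN and FOLR1, FOLR1 and PAX8, PAX8 and WT1, and WT1 and MUC16 differed by less than their summed SDs, whereas KRT7, MECOM and CLDN3 were separated from each other and from the rest by more than their SDs.

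Ascites changed no member by the threshold used. Of the 4 tested, 0 were called by edgeR without the drug, against 0.0882% of all genes tested, and 0 with it, against 0.128%. Averaged over both drug states 0 were called, against 0.281%. At an unadjusted edgeR p under 0.05 there was 1 member each time, KRT7, and the share of all genes under that p is not given here. KRT7 was 0.08 higher on the log2 scale (SE 0.021, edgeR adjusted p = 0.0933) when averaged over drug states. All 3 of its ascites libraries lay above all 3 control libraries, and the drug-treated libraries overlapped. With 3 libraries a group and no share of all genes beside it, nothing is read from that order. DESeq2 gave the same gene an adjusted p of 0.0398, and without combination replicate 3 the value was 0.10 with an edgeR adjusted p of 0.000440. That library stood apart from the other 11 on the second principal component, at 22.4 against -9.84 to 4.37. Leaving out any of the other 11 did not bring the call. MECOM differed by 0.03 (95% interval -0.08 to 0.14), and CLDN3 and PAX8 were also not called. No member was called in the interaction of drug and ascites by either tool, where edgeR called 0% of genes. Among the 4 members that passed the filter, 0 had an unadjusted p under 0.05 there.

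**Figure D3:**
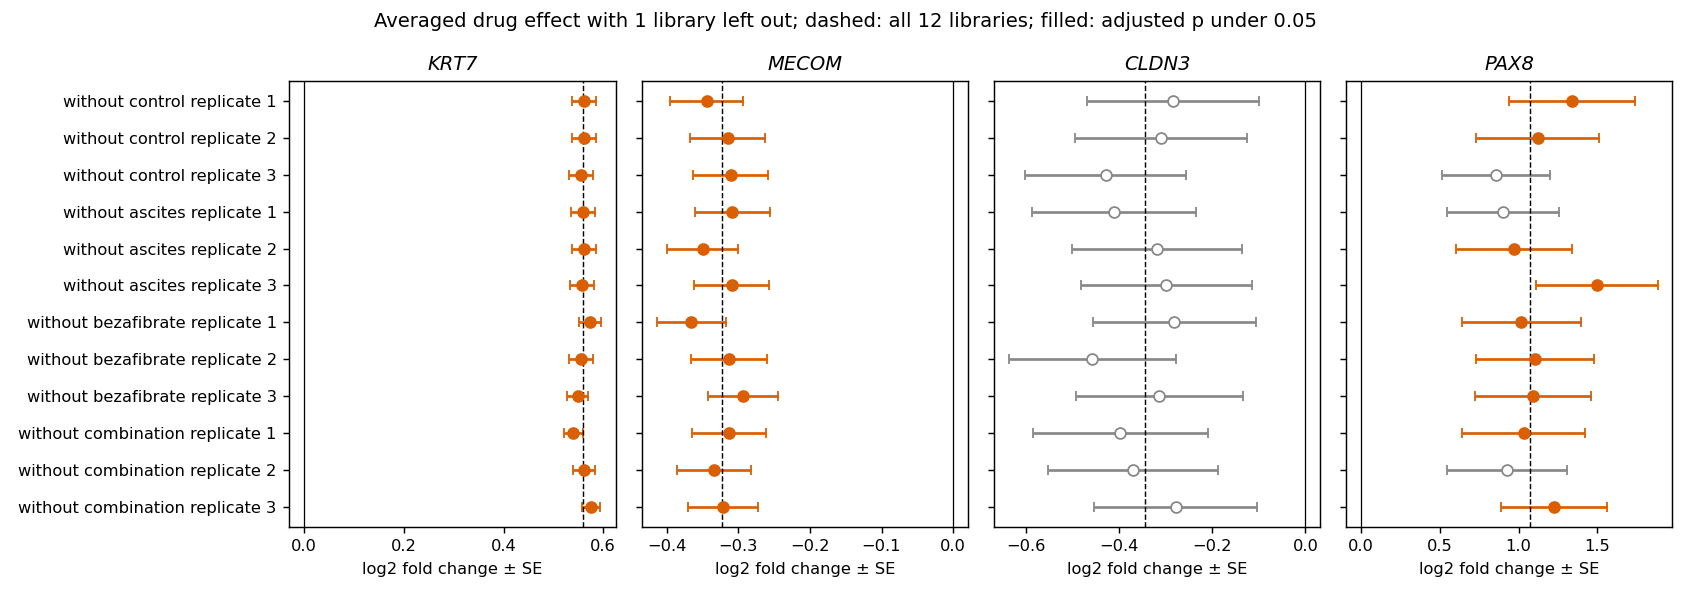
Averaged drug effect (log2, point and SE) on each tested member with 1 of the 12 libraries left out per row. Filled points, with an adjusted p under 0.05, are found in all 12 rows for KRT7 and MECOM, in 9 for PAX8 and in 0 for CLDN3, and the dashed line is the value with all libraries.

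Of the other 4 keratins of the epithelial list that were tested, 1 was called for the averaged drug effect, against 28.3% of all genes tested. KRT19, the smallest acidic keratin, rose by 0.26 on the log2 scale (edgeR adjusted p = 1.04e-12). KRT8 and KRT18, the pair that forms filaments in simple epithelium, were at -0.03 and -0.02 and were not called (edgeR adjusted p = 0.139 and 0.353), though KRT8 was called lower at -0.05 when libraries were scaled by the upper quartile. KRT80 was at -0.03 (adjusted p = 0.418). These keratins were named after their values were seen. With ascites KRT8, KRT18 and KRT80 were 0.07, 0.07 and 0.10 higher, with edgeR adjusted p of 0.0578, 0.0626 and 0.0613. Without combination replicate 3 all 3 were called (edgeR adjusted p = 0.00907, 0.0230 and 0.0157). For list genes only this library was left out, a choice made after the values were seen. Without it 118 of all genes were called for averaged ascites, against 35 with all libraries, so these calls are not particular to keratins.

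The lists of related genes were read by their counts and medians, beside the median of all 12470 tested genes, -0.0047 on the log2 scale for the averaged drug effect, and the shares of those genes called higher (15%) and lower (13.2%). Of 40 Müllerian and serous relatives, 18 were tested, 0 rose and 11 fell, with a list median of -0.28. At mean levels of 1 CPM or more, the largest falls were KLHL14 (-0.86), the cadherin CDH6 (-0.66), the homeobox factor MEIS1 (-0.41) and the laminin receptor BCAM (-0.30). Those not called included the ciliary factor FOXJ1 and MUC1. In this list 14 genes had no count in any library, among them PGR, the kallikreins KLK5 to KLK8 and SLC34A2. Another 14 had a mean of at least 1 CPM. Of those, 11 averaged at least 10 CPM, among them BCAM at 98.0, HOXA9 at 70.5, HOXA10 at 56.4 and LHX1 at 42.8.

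Of 40 epithelial keratin and junction genes, 31 were tested, 15 rose and 6 fell, with a list median of 0.09. CDH1, the E-cadherin of epithelial junctions, rose by 1.60, the protease inhibitor SPINT1 by 1.03, the desmosomal cadherin DSC2 by 0.89 and the membrane protease ST14 by 0.67. Of 20 partners and regulators of the marker factors, 17 were tested, 4 rose and 7 fell, with a list median of -0.08. GATA6 fell by 0.45 and FOXA1 by 0.36, and WWTR1 and TCF7L2 rose by 0.26 and 0.24. Of 19 genes of folate uptake and use, which serve the pathway FOLR1 feeds, 17 were tested, 4 rose and 3 fell, with a median of 0.03, so that both counts were near the shares of all genes. MTHFD2, a mitochondrial folate enzyme, rose by 0.12 and SLC46A1, the proton-coupled folate transporter, by 0.11. With upper-quartile scaling 3 of this list rose and 4 fell. Averaged over drug states, ascites called 0 genes in any of these lists by edgeR. At an unadjusted edgeR p under 0.05 there were 2 of 18 tested relatives, 8 of 31 epithelial genes and 0 of 17 in each of the other 2 lists. The share of all genes under that p is not given here, so nothing is read from these numbers.

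**Figure D4:**
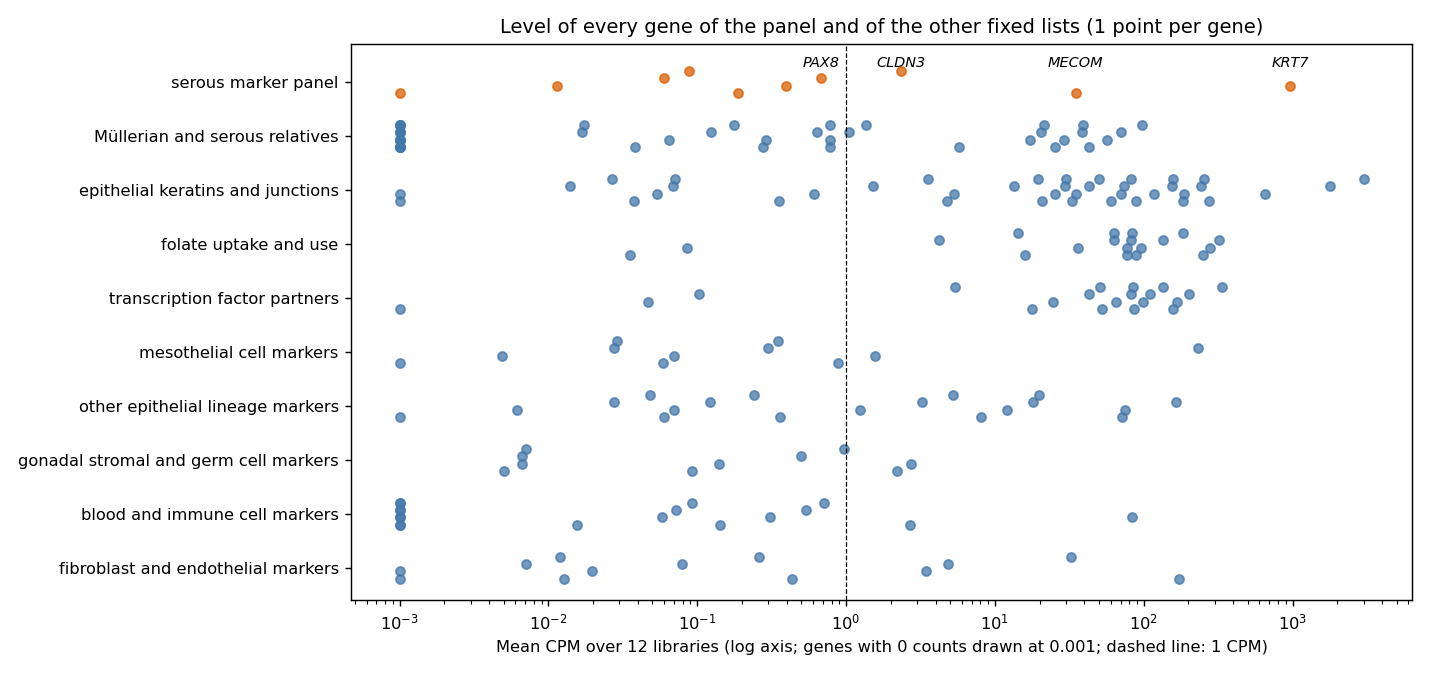
Mean CPM of each gene in the lists over the 12 libraries (log axis, genes with 0 counts drawn at 0.001). Of the 40 serous relatives 26 lie under 1 CPM, and of the 40 epithelial genes 30 lie at or above it.

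**Figure D5:**
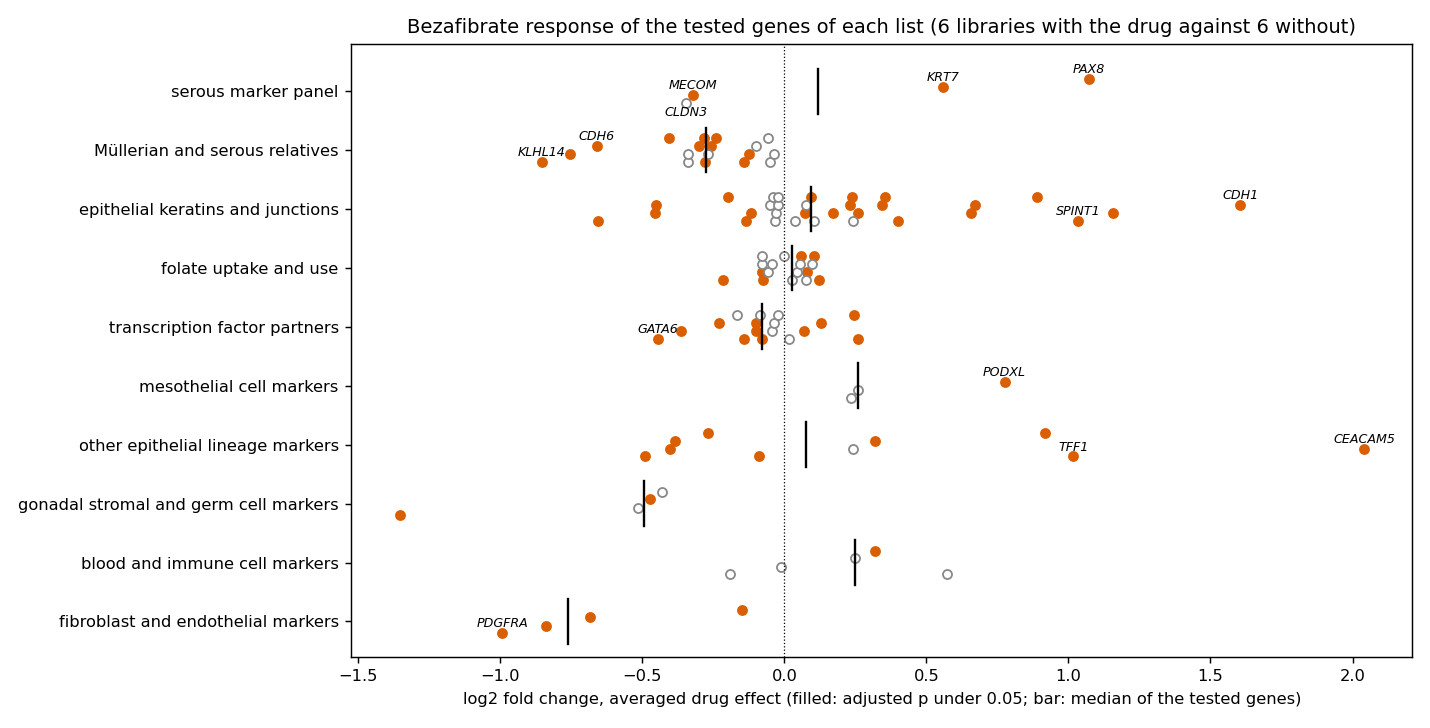
Log2 averaged drug effect of each tested gene by list, with the members and the largest changes labelled, filled where the adjusted p was under 0.05 and a bar at each list's median. All 18 tested serous relatives lie under 0, and epithelial genes lie on both sides.

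Markers of cell types that a serous sample might hold were read as a check. Of 18 blood and immune markers, 8, among them PTPRC, had no count, and the list's summed level was 75.9 to 86.0 CPM without the drug and 93.3 to 102.8 with it, most of it from CD68, which rose by 0.32. Of 13 fibroblast and endothelial markers FAP and KDR had no count, 4 were tested and all 4 fell (PDGFRA by 0.99, COL3A1 by 0.84, COL1A1 by 0.68 and LUM by 0.15), and the summed level was 229.7 to 244.8 CPM without the drug and 184.9 to 200.2 with it. Of 11 mesothelial markers 3 were tested and PODXL rose by 0.77. Of 10 gonadal and germ cell markers 4 were tested, all 4 under 0, and 2 fell. POU5F1, at a mean of 0.495 CPM and named after its values were seen, fell by 1.36 (edgeR adjusted p = 0.00442), and AMH fell by 0.48, a call lost without combination replicate 3 (edgeR adjusted p = 0.0706). POU5F1 has near-identical pseudogenes, so its counts are uncertain. Its mean was also under the 0.701 CPM that the low-count filter asks of a library. It therefore entered the test only through its higher libraries, and its call is not read as support for a fall. Of 19 markers of other epithelial lineages, 10 had at least 1 CPM, including TFF1 at 75.3 CPM. In that list 4 rose (CEACAM5 by 2.04, TFF1 by 1.02 and MUC5AC by 0.92) and 5 fell (AFP by 0.49). CEACAM5 averaged only 1.23 CPM and may have passed the filter mainly through its drug-treated libraries, so its call carries the same limit. The part of these markers in the members' changes was not tested.

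The genes whose levels ran most like KRT7 over the 12 libraries, by Pearson r of log2 CPM among 11858 genes, were the glucose transporter SLC2A1 (r = 0.992) and the peroxisomal thiolase ACAA1 (r = 0.991). They are 2 of 596 genes with r over 0.9. For MECOM, FAM168A (r = 0.943) was among 60 such genes. These correlations share the drug contrast and the libraries and are given as a description. ACAA1 was at 68.8 CPM ± 1.82 in control and 97.8 ± 3.46 with bezafibrate, and FAM168A was at 64.6 ± 1.60 and 59.8 ± 2.48 (SD, n = 3 each).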

How the data were processed

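Each library came with its own deposited table of gene counts, in whole numbers, and the submitters' processing notes name Trimmomatic 0.39, STAR 2.7.9a, RSEM 1.3.3, DESeq2 1.28.1 and GRCh38 without roles. The annotation release and strandedness are not given in the sources used here. Total counts were 11831093 to 18762759 per library. Counts as deposited were tested with edgeR 4.0.16 (filterByExpr, minimum count 10, total 15, leaving 12470 genes and 4 members; TMM scaling; robust quasi-likelihood F test, 8 residual degrees of freedom) in R 4.3.3, with 0.05 as the threshold on Benjamini-Hochberg adjusted p-values. Averaged effects are means of an effect over both states of the other treatment. The test was also tried on simulated data whose levels and spread were taken from the fit of these libraries. Alternatives were DESeq2 1.42.0, other scalings, filters and groups, a replicate block, and each library left out. Members, lists and the rule for named genes (the 4 largest called changes per list at a mean of at least 1 CPM) were chosen with earlier results of these data known. Some genes that the rule names are not reported here.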

Additional observations from a re-analysis of the deposited data

How the results depend on the processing

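Of 32 member results in the tested comparisons, 19 kept direction and side of the threshold under all alternatives, as did 587 of 624 alternative values (11 lost the call, 4 gained it, 22 reversed). KRT7 and MECOM kept their drug calls throughout. With an adjusted p under 0.01, 1475 genes were called for the drug with ascites, 4 for ascites, 6 for ascites with the drug and 19 for ascites averaged, and PAX8 lost its calls. Without a filter the counts were 59, 52 and 113 for these ascites comparisons and 36 for the interaction, and 1 member was called for averaged ascites (KRT7, adjusted p = 0.00959), as in DESeq2. With only the 2 groups compared in the fit, 33 and 7 genes were called for ascites without and with the drug. Leaving out 1 library at a time gave 3 to 24 and 9 to 28 of these, 21 to 118 for averaged ascites and 0 to 3 for the interaction. Members called then were 2 to 3 for the drug alone and averaged, and 0 to 1 for ascites with the drug and averaged. The cause of these changes was not tested.

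Values that changed sign with 1 library left out were all uncalled: ascites on MECOM (-0.036 to 0.061, with the drug -0.0061 to 0.14), on PAX8 (-0.56 to 0.82, averaged -0.55 to 0.14) and on CLDN3 (with the drug -0.31 to 0.047, averaged -0.080 to 0.12), and the interaction of MECOM (-0.013 to 0.13), PAX8 (-1.36 to 0.027) and KRT7 (-0.026 to 0.048). Same-numbered libraries correlated at -0.12 to 0.09, 0 of 18 pairs over 0.1, so the labels' numbers were not taken as pairs. The replicate block called 1 gene in the interaction and changed no member call. Few counts limit the 7 low members.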
